A study of Mus musculus with 2 samples.

Results

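The respiratory chain sits in the inner mitochondrial membrane, where complexes I to IV pass electrons from NADH and succinate to oxygen and complexes I, III and IV pump protons that drive the ATP synthase, complex V. Most of the subunits are encoded in the nucleus and imported, while a small set is encoded by mitochondrial DNA, and only complex II is wholly nuclear. Adipocyte formation is known to involve a build-up of mitochondria, and several subunits exist as isoforms whose genes are used in different tissues or oxygen conditions.

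The nuclear genes of this chain were taken by name from an RNA-seq table of mouse cells: names starting with Nduf, Uqcr, Cox4, Cox5, Cox6, Cox7, Cox8 or Atp5, plus Sdha, Sdhb, Sdhc, Sdhd and Cyc1, with pseudogene names containing -ps left out. This gave 101 of the 44291 genes in the table, 50 placed in complex I, 4 in complex II, 9 in complex III, 20 in complex IV and 18 in complex V. The 101 entries carry 100 distinct names, because Atp5o is listed under a pair of identifiers. The 50 of complex I include 8 assembly factors (Ndufaf genes), which help to build the complex without staying in it and are described apart. Ndufa4 and Ndufa4l2, named after complex I, were counted with complex IV, where the NDUFA4 protein is now placed.

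The cells were primary fibro-adipogenic progenitors (FAPs) of genotype WT, mesenchymal cells in skeletal muscle with the ability to become adipocytes. One culture was treated with platelet-rich plasma (PRP, plasma rich in platelets) and the other with vehicle as control, and both were placed in adipogenic induction medium with IBMX, dexamethasone and insulin. The labels name the treatment PRP, whereas the study's own text describes exosomes, small vesicles, isolated from it. Each group had 1 library, so there is no replicate spread, no test and no p-value, and each difference is one between 2 libraries. The number of mice behind each culture and their age are not given in the labels.

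Values are FPKM, that is reads scaled to the exon length of the gene and to the total of assigned reads. The log2 fold change is log2(PRP FPKM + 1) minus log2(control FPKM + 1), given where the mean FPKM reached 1. A gene was called higher or lower at 1.2-fold on that scale, which understates the change of genes at low levels. The read totals recovered from the values were 40120843 for PRP and 34139741 for control, of which 277090 and 245444 fell on the respiratory chain genes. For 100 of the 101 genes whole reads were recovered, and the interval given with a ratio is the exact 95% binomial (Clopper-Pearson) interval of the FPKM ratio, which covers counting error only. In bulk RNA, fewer cells of a type and less RNA per cell cannot be told apart.

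Markers of the cells themselves were checked first. All 6 FAP markers were present, and their summed FPKM was 279 in PRP and 416 in control. Of 4 adipocyte markers 3 passed the filter, with Fabp4 at 40.7 FPKM in PRP and 33.6 in control, Adipoq at 5.49 and 5.22 and Plin1 at 1.73 and 2.10. The 6 muscle fibre markers summed to 98.3 FPKM in PRP and 99.6 in control, with Myh4, a fast muscle myosin, at 34.9 and 35.9 FPKM. They did not move together. Acta1 was higher in PRP, with 15.1 and 11.1 FPKM, a ratio of 1.36 (interval 1.17 to 1.57). Mb was lower, with 3.63 and 4.81 FPKM, a ratio of 0.754 (0.576 to 0.984). Intervals of the other fibre markers included no change. None of the 3 satellite cell markers passed, Pax7 and Myog were listed at 0 in both libraries, and none of the 4 platelet markers or the 3 brown adipocyte markers passed. Of the macrophage markers 1 of 4 passed (Cd68, 4.56 and 2.31 FPKM), and of the endothelial markers 1 of 3 (Kdr, 4.23 and 1.499 FPKM). The part of these cells in the values below was not tested.

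Promoters of respiratory chain genes are known for sites of NRF1, of ETS family factors such as GABP, and of YY1, the factors that tie many of these genes to one programme. Windows of 300 bases around the gene start, 250 before and 50 after, from RefSeq on GRCm38.p6 were at hand for 77 of the 100 names. Ndufa4l2, Cox4i2 and Ndufaf6 were not among them. The letters GCGCA and GCGC with any base between them (NRF1) stood on either strand in the windows of 24.7% of these genes, against 11.9% of the expressed genes, those at a mean FPKM of 1 or more, and 5.19% of all 27025 genes with a window. CCGGAAG (ETS family) stood in 24.7%, 21.5% and 9.93%, AAGATGGCG (YY1) in 10.4%, 3.93% and 1.64%, and TCAAGGTCA (ERR, the estrogen-related receptors) in 2.60%, 0.289% and 0.466%. ACGTG, the core of the hypoxia-inducible factor (HIF) site, stood in 24.7%, 30.4% and 21.8%. The ERR share of 2.60% rests on 2 of the 77 genes. All of these are matches of letters, not sites shown to be bound. The stretches below show NRF1 and ETS family matches in capitals for genes that the results turn on. These are complex II, where a single subunit stood apart, and the members past 1.2-fold in complexes I and V with such a match. Sdha also holds the HIF core and Sdhd the ERR letters, which are not shown. Each stretch is read 5′ to 3′ on the strand of its gene, so that a match on the opposite strand appears as its reverse complement.
Sdha, NRF1, chr13:74350319-74350348, minus strand: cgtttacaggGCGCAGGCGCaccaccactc
Sdhb, ETS family, chr4:140961265-140961294, plus strand: ggctcggagaaaCCGGAAGcggccttccac
Sdhd, NRF1, chr9:50603909-50603938, minus strand: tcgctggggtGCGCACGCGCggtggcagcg
Sdhd, ETS family, chr9:50603878-50603907, minus strand: accgtctcctgcCTTCCGGttcacgcttca
Ndufa6, NRF1, chr15:82354249-82354278, minus strand: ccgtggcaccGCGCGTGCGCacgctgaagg
Atp5e, ETS family, chr2:174464186-174464215, minus strand: ctacggccacagCTTCCGGtagccgctcgg

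**Figure D1:**
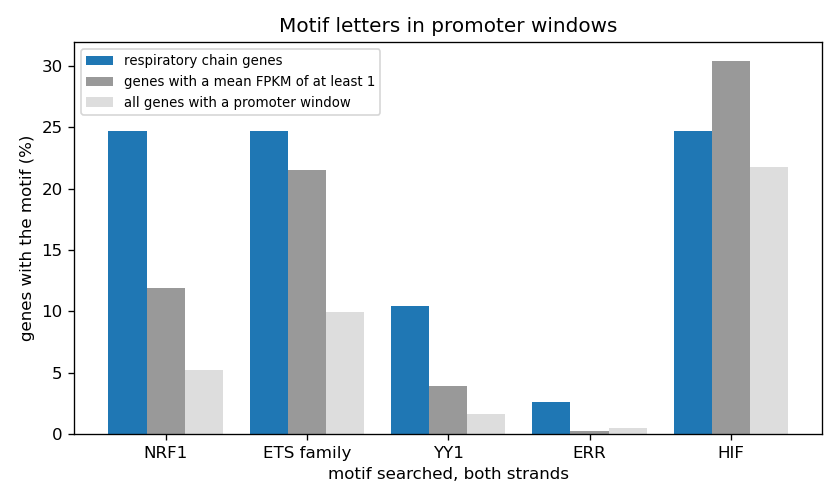
Share of genes (y axis, percent) whose 300-base promoter window holds each motif's letters on either strand (x axis), for the 77 respiratory chain genes with a window, for expressed genes (mean FPKM of 1 or more) and for all genes with a window. The respiratory chain genes had the NRF1 letters at 24.7% against 11.9% of expressed genes, and the HIF core at 24.7% against 30.4%.

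Genes with the same match did not share one ratio. Sdha, Ndufa6 and Sdhd all hold the NRF1 letters. Their ratios were 0.683, 1.31 (interval 1.17 to 1.47) and 1.09, where the interval of Sdhd includes no change (0.955 to 1.25). Whether a match bears on the ratio was not tested. Over the tested genes with a window the median log2 fold change was -0.01 for the 20 entries with the NRF1 letters and -0.04 for the 55 without, where both Atp5o entries are counted. For the ETS family letters the medians were -0.10 for 19 genes and -0.01 for 56. With and without the YY1 letters they were 0.02 (8) and -0.04 (67). For ERR they were 0.04 (2) and -0.03 (73), and for HIF -0.03 (17) and -0.02 (58).

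As a whole, the nuclear respiratory chain genes differed little between the libraries. Of the 101, 92 passed the filter, and their median log2 fold change was -0.04 against 0.01 over all 13401 genes tested. The middle of the distribution, from the 25th to the 75th percentile, ran from -0.12 to 0.06 against -0.19 to 0.21 for all genes. The central 95% ran from -0.53 to 0.37 against -0.74 to 0.89. Over the 92 genes the libraries had a Pearson r of 0.991 on log2(FPKM + 1), a description across genes that share both libraries. Together the 101 genes held 1.12% of the summed FPKM in PRP and 1.18% in control.

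In PRP 54 of the 92 genes were lower (58.7%) and 38 higher, where 49.1% of all genes tested were lower and 50.9% higher. This split was 61 lower and 31 higher after rescaling to a common sum (66.3% lower, against 50.9% of all genes on that scale), and 65 and 27 when the sum did not count mitochondrial genes and the 50 most abundant ones (70.7% against 52.7%). At 1.2-fold, 12 were lower (13.0%, against 18.1% of all genes) and 5 higher (5.43%, against 20.4%), or 3 higher without the paralog entries. Both shares are below those of all genes, as is the share of higher genes whose interval lay above no change, 9 of 91 or 9.89% against 26.2%. Below no change were 28 of 91 intervals, 30.8% against 26.1%. At 1.5-fold there were 2 lower (Ndufa4l2 and Cox4i2) against 4.57% of all genes, and 1 higher (Ndufaf6) against 6.15%. At a mean FPKM of 5 or more, 49 of 81 genes were lower (60.5%, against 49.0% of all genes at that level), with 10 lower at 1.2-fold (12.3% against 18.8%) and 4 higher (4.94% against 19.7%). At 2-fold none was called in either direction, where 2.00% of all genes were higher and 0.828% lower.

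**Figure D2:**
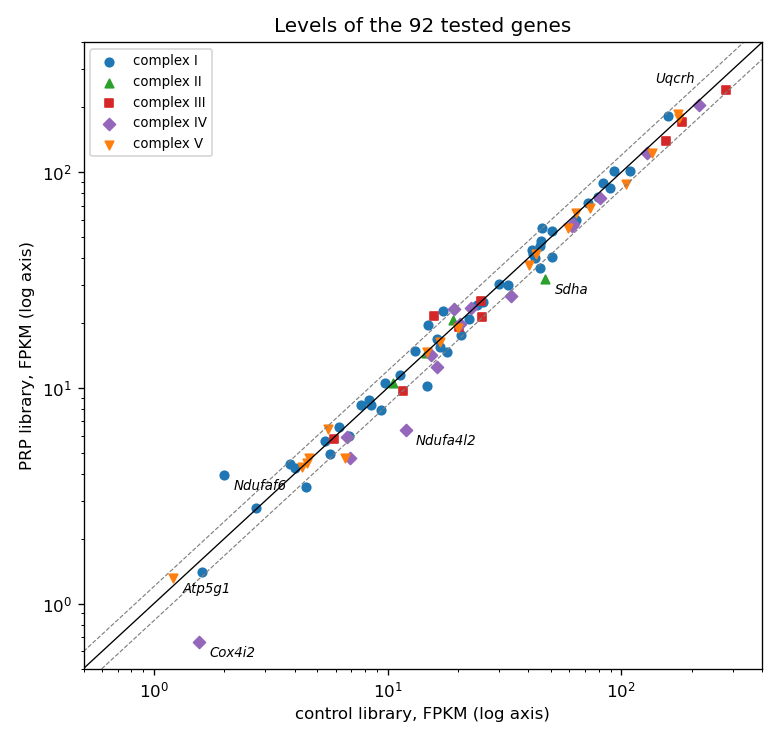
FPKM of the 92 tested genes in the control library (x axis) and the PRP library (y axis), both on log axes, coloured by complex, with equality as a solid line and 1.2-fold as dashed lines. Most genes lie between the dashed lines, and Ndufa4l2 (11.98 in control, 6.37 in PRP), Sdha (47.0, 32.1), Cox4i2 (1.56, 0.664) and Ndufaf6 (1.99, 3.96) lie outside them.

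Median log2 fold changes were 0.01 for the 39 tested genes of complex I, -0.01 for the 4 of complex II, -0.09 for the 9 of complex III, -0.11 for the 15 of complex IV and -0.03 for the 18 of complex V. The sign for complex I depended on the scaling, with medians of -0.01 and -0.02 under the rescalings named above, and it was -0.03 without genes that have near-identical copies. The share of genes lower in PRP went from 46.2% in complex I (18 of 39) through 61.1% in complex V (11 of 18), 3 of 4 in complex II and 77.8% in complex III (7 of 9) to 86.7% in complex IV (13 of 15). Under the second of those rescalings these counts were 24, 14, 3, 8 and 13. Summed FPKM of the subunits gave a ratio of PRP to control of 0.997 in complex I (1.01 with the 5 paralog entries described below), 0.854 in complex II, 0.909 in complex III, 0.932 in complex IV and 0.967 in complex V. No difference between complexes was tested, since genes are not replicates of a condition.

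**Figure D3:**
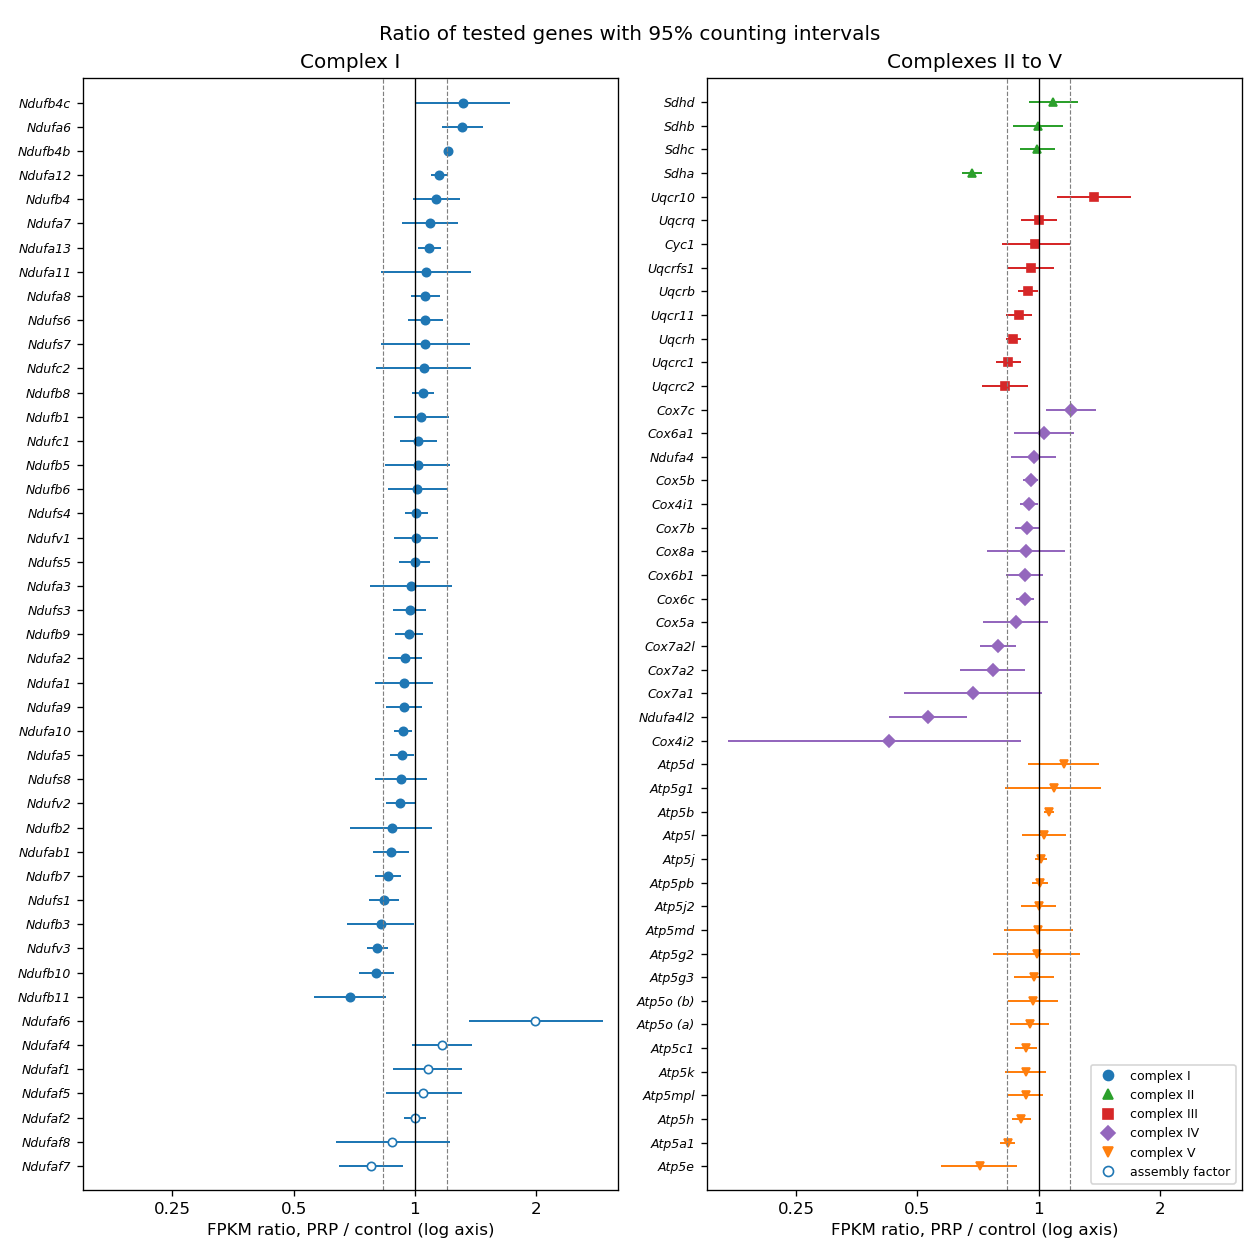
Ratio of PRP to control FPKM (x axis, log) for the tested genes reported here, each with its exact 95% binomial interval for counting error, grouped by complex and sorted by ratio, with assembly factors of complex I as open circles. Dashed lines mark 1.2-fold on the plain ratio. Cox4i2 (0.425), Ndufa4l2 (0.532), Sdha (0.683) and Ndufb11 (0.689) lie to the left of their complexes, and Ndufaf6 (1.99) and Uqcr10 (1.37) to the right. Cox4i2 has the lowest ratio drawn, with a wide interval, and Ndufb4b has no interval.

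Complex I takes electrons from NADH, and its 7 nuclear core subunits carry the chemistry. Ndufs1, which holds several of the iron-sulphur clusters, had 7.89 FPKM in PRP and 9.41 in control, a ratio of 0.838 (interval 0.776 to 0.906). Ndufv2, an iron-sulphur protein of the NADH end, had 30.1 and 32.7 FPKM, a ratio of 0.921 (0.850 to 0.997). Intervals that included no change were those of Ndufv1, Ndufs3, Ndufs7 and Ndufs8: the ratios were 1.01 for Ndufv1, the flavin subunit where NADH is oxidised, 0.970 for Ndufs3, 1.06 for Ndufs7 and 0.924 for Ndufs8. None of the 7 passed 1.2-fold, against 20.4% of all genes higher and 18.1% lower, and their median log2 fold change was -0.04.

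Around the core lie supernumerary subunits, which stabilise the complex. Of the 11 NDUFB genes, most of whose proteins sit in the outer membrane arm, 3 were lower at 1.2-fold, against 18.1% of all genes tested. None was higher at 1.2-fold, against 20.4%. Ndufb11, encoded on the X chromosome (20615326 to 20617619 on GRCm38), had 10.2 FPKM in PRP and 14.7 in control, a ratio of 0.689 (0.566 to 0.842). Ndufb10 had 36.2 and 45.1 FPKM, a ratio of 0.803 (0.731 to 0.881). Ndufb3 had 14.7 and 17.9 FPKM, a ratio of 0.824 (0.681 to 0.991). The other 8 were at ratios from 0.857 (Ndufb7) to 1.13 (Ndufb4), so the group was mixed, 5 higher and 6 lower, with a median log2 fold change of -0.05. Of the 50-base words of Ndufb11, 17.5% also occur in other genes.

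Of the 19 further supernumerary genes 1 was called in each direction, against 18.1% of all genes lower and 20.4% higher. Ndufv3, a small protein at the NADH end, had 40.6 FPKM in PRP and 50.3 in control, a ratio of 0.807 (0.765 to 0.852). Ndufa6, which binds the acyl carrier protein Ndufab1 within the complex, had 22.6 and 17.3 FPKM, a ratio of 1.31 (1.17 to 1.47). Its partner Ndufab1 had 5.99 and 6.86 FPKM, a ratio of 0.872 (0.790 to 0.962), so the pair lay on opposite sides of no change. Ndufa12, the most abundant complex I gene in control, had 182 and 159 FPKM, a ratio of 1.15 (1.11 to 1.197) and a log2 fold change of 0.20, short of 1.2-fold.

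The complex I names also include 5 paralog entries, of which Ndufb4b and Ndufb4c passed the filter and were called higher. Ndufb4c, Ndufs6b and Ndufa11b, as well as Cox6c2 of complex IV, are annotated as processed pseudogenes in GENCODE M21, although their names lack the -ps mark. Ndufb4c had 19.6 FPKM in PRP and 14.9 in control, a ratio of 1.32 (1.01 to 1.71). Ndufb4b had 55.1 and 45.6 FPKM, a ratio of 1.21, with no interval because its exon length was not at hand. All 50-base words of Ndufb4c occur in other genes, Ndufb4 foremost, so the values within this family are uncertain. Ndufa11b was listed at 0 in both libraries, where 3 fragments would be 0.353 FPKM in PRP and 0.415 in control. Ndufb11b (0 and 0.0572 FPKM) and Ndufs6b (0.430 and 0.673 FPKM) were below the filter.

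Of the 8 Ndufaf assembly factors 7 passed the filter, with 1 called in each direction, against 18.1% of all genes lower and 20.4% higher. Ndufaf6, which is needed early in assembly (chromosome 4, 11051045 to 11076205), had 3.96 FPKM in PRP and 1.99 in control from 196 and 84 reads. Its ratio of 1.99 (1.37 to 2.92) was the highest among the 92 tested genes. Ndufaf7, a methyltransferase, had 3.48 and 4.47 FPKM, a ratio of 0.778 (0.651 to 0.929). The others were at ratios from 0.877 (Ndufaf8) to 1.17 (Ndufaf4), and Ndufaf3, at 0.714 and 0.775 FPKM, was below the filter. Ndufaf2 shares 65.6% of its exon length with another gene, so its level of 41.9 FPKM in both libraries may hold reads of that gene.

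Of 8 assembly factors of complex I with other names, 7 were tested, 5 higher and 2 lower, with a median log2 fold change of 0.18. Timmdc1 had 14.6 FPKM in PRP and 11.7 in control, a ratio of 1.25 (1.09 to 1.43). It was the 1 gene called higher at 1.2-fold (against 20.4% of all genes), and none was called lower (against 18.1%). Tmem126b was the lowest on the log2 scale, with 21.7 and 24.4 FPKM, a ratio of 0.891 (0.837 to 0.948), while Acad9, at 2.33 and 2.70 FPKM, had the lowest plain ratio, 0.864.

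Complex II is succinate dehydrogenase, an enzyme of both the citrate cycle and the chain, and 1 of its 4 subunits differed from the rest. Sdha, the flavoprotein that oxidises succinate (chromosome 13, 74322254 to 74350280), had 32.1 FPKM in PRP and 47.0 in control, from 5314 and 6620 reads. Its ratio was 0.683 (0.649 to 0.719), a log2 fold change of -0.54, and none of its 50-base words occurs in another gene. Sdhb, the iron-sulphur subunit, had 10.54 and 10.6 FPKM, a ratio of 0.996 (0.871 to 1.14). The membrane anchors Sdhc, with 14.5 and 14.6 FPKM, and Sdhd, with 20.7 and 19.0 FPKM, had ratios of 0.994 (0.904 to 1.09) and 1.09 (0.955 to 1.25). The interval of Sdha did not meet that of any of the other 3, so that the ratio of 0.854 for the summed complex rested on Sdha.

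Of the 4 complex II assembly factors, 3 passed the filter. At 1.2-fold 1 was called higher (against 20.4% of all genes) and 1 lower (against 18.1%). Sdhaf1, which helps to place the iron-sulphur clusters of Sdhb, had 6.29 FPKM in PRP and 3.93 in control, a ratio of 1.60 (1.32 to 1.94). Sdhaf2, which attaches the flavin to Sdha, had 4.60 and 5.78 FPKM, a ratio of 0.796 (0.715 to 0.886). Sdhaf4 lay between them, with 2.97 and 3.18 FPKM, a ratio of 0.932 (0.622 to 1.43). Sdhaf2 was thus called lower at 1.2-fold, as was Sdha. Whether these calls are linked was not tested.

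Complex III passes electrons from quinol to cytochrome c. It had 7 of 9 genes lower (77.8%, against 49.1% of all genes) and no gene called lower at 1.2-fold (against 18.1%). Intervals lay below no change for 5 and above for 1, against 26.1% and 26.2% of all genes. Uqcrh, the hinge protein near cytochrome c1 and the most abundant gene of all 101 in control, had 242 FPKM in PRP and 279 in control, a ratio of 0.865 (0.835 to 0.897). The core proteins Uqcrc1, with 21.4 and 25.4 FPKM, and Uqcrc2, with 9.63 and 11.7 FPKM, had ratios of 0.842 (0.788 to 0.900) and 0.824 (0.727 to 0.935). Uqcr10, a small subunit (chromosome 11, 4701973 to 4704342), went the other way with 21.6 and 15.7 FPKM from 506 and 314 reads, a ratio of 1.37 (1.12 to 1.68). The nuclear catalytic subunits had intervals that include no change and overlap those of Uqcrc1 and Uqcrc2. Their ratios were 0.983 (0.818 to 1.19) for Cyc1, the cytochrome c1 protein, and 0.956 (0.843 to 1.09) for Uqcrfs1, the Rieske iron-sulphur protein. Cytochrome b, the catalytic subunit encoded by mitochondrial DNA as mt-Cytb, is described below. Uqcrq was at 1.003 (0.911 to 1.10). Of the 6 assembly factors of complex III, 5 were tested with a median log2 fold change of 0.12, from Bcs1l at 1.34 FPKM in PRP and 1.48 in control, a ratio of 0.905, to Uqcc3 at 25.3 and 21.8, a ratio of 1.16.

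Complex IV, cytochrome c oxidase, reduces oxygen, and 13 of its 15 tested genes were lower (86.7%, against 49.1% of all genes), 5 of them at 1.2-fold (33.3%, against 18.1%) and none higher at 1.2-fold (against 20.4%). The genes called lower were Ndufa4l2, Cox4i2, Cox7a1, Cox7a2 and Cox7a2l. Each is from a family of related isoforms, but so are Cox4i1, Ndufa4, Cox6a1, Cox6b1 and Cox8a, which were not called. Of the 5, Cox4i2 passed the filter only through its control value, which favours a call as lower. The interval of Cox7a1 includes no change (0.467 to 1.01). The 10 tested genes not called had ratios from 0.877 (Cox5a) to 1.203 (Cox7c). Cox5b, the most abundant complex IV gene in control, had 205 FPKM in PRP and 214 in control, a ratio of 0.956 (0.923 to 0.991). The highest in this complex were Cox7c, with 23.2 and 19.3 FPKM and an interval from 1.05 to 1.38, which on the log2 scale with the added 1 fell short of 1.2-fold, and Cox6a1, at 1.03 (0.876 to 1.22). Cox7c shares 22.1% of its 50-base words with other genes.

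Ndufa4l2 had the lowest log2 fold change of the 92 genes, -0.82, a rank that depended on the settings. Cox4i2 was lower at a pseudocount of 0.1 (-1.12 against -0.90) and after rescaling to a common sum (-0.93 against -0.89). With mitochondrial and top genes left out of the sum it was also lower (-1.01 against -0.92). Ndufa4l2 is a relative of Ndufa4 known as a target of HIF-1 (chromosome 10, 127514967 to 127517154). Ndufa4l2 had 6.37 FPKM in PRP and 11.98 in control from 280 and 448 reads, a ratio of 0.532 (0.427 to 0.660). Ndufa4 itself had 19.8 and 20.4 FPKM, a ratio of 0.971 (0.858 to 1.10). Within this pair the share of Ndufa4l2 in the summed FPKM was 24.4% (20.99 to 28.0) in PRP and 37.0% (33.3 to 40.9) in control, so the counting intervals of the shares did not meet. Counted in reads in place of FPKM the shares were 20.3% and 31.8%.

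Cox4i2, the isoform of subunit 4 known from lung and from low oxygen (chromosome 2, 152754173 to 152765037), had 0.664 FPKM in PRP and 1.56 in control. These values rest on 21 and 42 reads, and the ratio of 0.425 has an interval from 0.170 to 0.899. Cox4i1, the common isoform, had 122 and 129 FPKM, a ratio of 0.948 (0.905 to 0.993). Cox4i2 therefore made up 0.540% (0.259 to 0.989) of subunit 4 in PRP and 1.19% (0.742 to 1.82) in control, and these intervals overlap. Both Ndufa4l2 and Cox4i2, the low oxygen relatives of the complex, were at the low end of the 92 genes, although Cox4i2 passed the filter only through its control value, which favours a low place. None of the 50-base words of either occurs in another gene.

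For subunit 7A, both isoforms were called lower, and their balance was close. Cox7a1, the isoform of heart, muscle and brown fat, had 4.75 FPKM in PRP and 6.90 in control, from 102 and 126 reads, a ratio of 0.689 with an interval that includes no change (0.467 to 1.01). Cox7a2, the isoform of most tissues, had 12.6 and 16.3 FPKM, a ratio of 0.770 (0.643 to 0.921). Cox7a1 held 27.4% (21.5 to 33.9) of the pair in PRP and 29.7% (24.0 to 35.8) in control. Cox7a2l, a relative that joins complexes III and IV into supercomplexes, had 26.8 and 33.8 FPKM, a ratio of 0.792 (0.718 to 0.873).

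The remaining tissue isoforms were close to the limit of detection. Cox6a2, a muscle isoform, had 0.147 FPKM in PRP and 0.172 in control, from 4 reads in each, while its counterpart Cox6a1 had 23.5 and 22.8. Cox8b, another muscle isoform, had 0.415 and 0.163 FPKM from 6 and 2 reads, beside Cox8a at 14.3 and 15.3. Cox6b2, known from testis, had 0.495 and 0.476 FPKM, beside Cox6b1 at 57.5 and 62.2. Cox8c had 0.109 FPKM in PRP and none in control, where 3 fragments would be 0.384 FPKM, so no difference was detectable at this depth. Cox6c2, a short paralog, had 0.863 and 1.01 FPKM from 8 reads in each. Subunit 7B was given by Cox7b alone, at 76.1 and 81.0 FPKM. Of the isoforms known from muscle, Cox6a2 and Cox8b were below 0.5 FPKM in both libraries and Cox7a1 was at 4.75 and 6.90. The muscle fibre markers summed to 98.3 and 99.6 FPKM, with Acta1 higher and Mb lower in PRP.

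**Figure D4:**
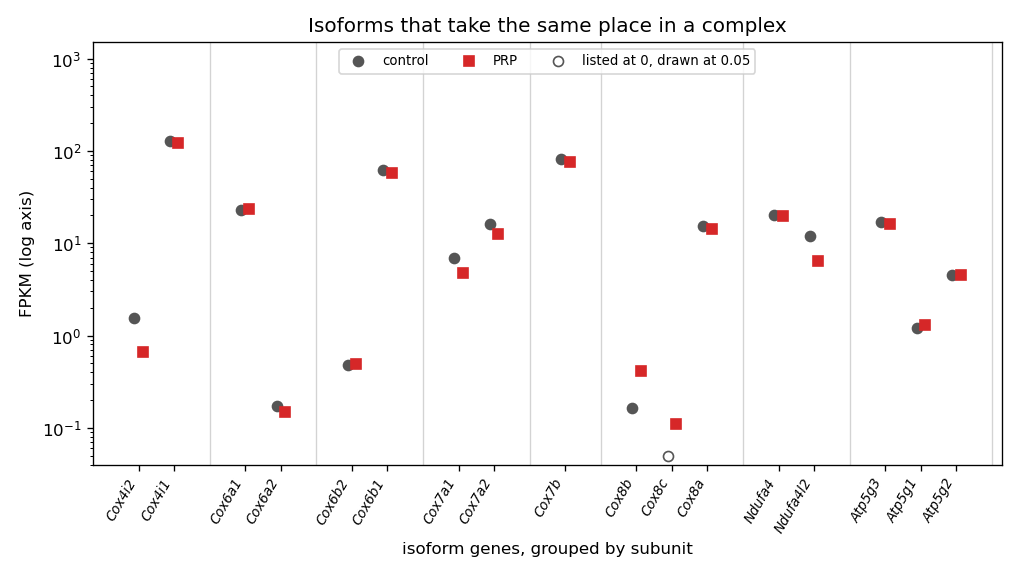
FPKM (y axis, log) of isoform genes that take the same place in complex IV or in the ring of the ATP synthase, in the control library (grey circles) and the PRP library (red squares), grouped by subunit. An open circle marks a gene listed at 0, drawn at 0.05. Ndufa4l2 lies at 11.98 FPKM in control and 6.37 in PRP, Ndufa4 at 20.4 and 19.8, and the points of the c subunit genes Atp5g1, Atp5g2 and Atp5g3 nearly meet.

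Assembly factors of complex IV went in both directions. Of 21, 19 were tested, 9 higher and 10 lower, with a median log2 fold change of -0.06. At 1.2-fold 4 were called higher (against 20.4% of all genes) and 3 lower (against 18.1%). On the log2 scale Cox17, the copper chaperone of the complex, was the highest with 28.6 FPKM in PRP and 20.5 in control, a ratio of 1.39. Cox14, which acts in the making of the Cox1 subunit, was the lowest with 2.96 and 4.03 FPKM, a ratio of 0.734. Neither had whole reads and so neither has an interval. By plain ratio Sco2, at 1.48 (1.09 to 2.06), and Cmc2, at 0.729 (0.554 to 0.967), lay further out.

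Complex V, the ATP synthase, had 1 of its 18 genes called lower at 1.2-fold (5.56%, against 18.1% of all genes) and none higher (against 20.4%). The catalytic head holds Atp5a1 and Atp5b, the alpha and beta subunits, named Atp5f1a and Atp5f1b in the current nomenclature. Atp5a1 had 87.8 FPKM in PRP and 105 in control, a ratio of 0.838 (0.807 to 0.869). Atp5b had 186 and 175 FPKM, a ratio of 1.06 (1.04 to 1.09), so the partners, present in equal numbers in the enzyme, had intervals on opposite sides of no change. The central stalk genes were Atp5c1, the gamma subunit, at 0.931 (0.881 to 0.985), Atp5d, the delta subunit, at 1.16 (0.949 to 1.40), and Atp5e, the epsilon subunit. Atp5e had 4.71 and 6.61 FPKM, a ratio of 0.713 (0.577 to 0.881), and was the gene called at 1.2-fold.

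The ring of c subunits is made from Atp5g1, Atp5g2 and Atp5g3, genes that encode the same mature protein. Atp5g3 held 73.8% of their summed FPKM in PRP and 74.5% in control, Atp5g2 held 20.3% and 20.1%, and Atp5g1 held 5.94% (4.95 to 7.07) and 5.35% (4.35 to 6.51). The shares of the libraries lay within each other's counting intervals. The 5 peripheral stalk entries had a median log2 fold change of -0.05, from Atp5h (122 and 135 FPKM, ratio 0.907, 0.865 to 0.951) to Atp5j, the most abundant complex V gene in control, at 178 and 176 FPKM and a ratio of 1.01 (0.985 to 1.04). One of the 2 Atp5o entries shares all of its exon length with Donson, a gene that lies over it. The 5 membrane subunits had a median of -0.00, with Atp5j2 at 14.7 FPKM in both. Of the 4 complex V assembly factors, all tested, none was called at 1.2-fold, against 20.4% of all genes higher and 18.1% lower. Tmem70 was the highest (5.82 and 4.86 FPKM, ratio 1.197) and Atpaf1 the lowest (1.80 and 2.18 FPKM, ratio 0.823).

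The levels of subunits of one complex were far from equal, although each complex holds most subunits in one copy. In complex III control FPKM ran from 5.89 for Cyc1 to 279 for Uqcrh. In complex I it ran from 1.60 for Ndufb2 to 159 for Ndufa12. Over the 92 genes of all complexes, with assembly factors and paralog entries among them, the highest control FPKM was 232 times the lowest. The highest was that of Uqcrh and the lowest that of Atp5g1 (1.205 FPKM), 1 of the 3 c subunit genes. FPKM divides by the length of all exons of a gene, and for the median gene this was 1.45 times the length of its principal transcript. For Atp5l, a membrane subunit of complex V, the exons span 6443 bases and the principal transcript 544, so that its control level went from 4.59 FPKM to 54.4 per principal length and its rank from 82 to 35. Ndufb7 went from 20.6 to 150, and its rank from 45 to 14. Taken per principal length the span of levels was 543 times over the 91 genes with such a length, and the rank order correlated with that of the FPKM at a Spearman rho of 0.918. Median control levels per principal length were 38.5 for complex I, 19.9 for complex II, 30.3 for complex III, 40.4 for complex IV and 52.7 for complex V. The log2 fold change had a Spearman rho of -0.09 with control FPKM over the 92 genes and 0.00 with exon length over 91, both given as descriptions.

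The subunits of the same complexes that mitochondrial DNA encodes lay well below the nuclear ones. All 13 were lower in PRP, with median log2 fold changes of -0.87 for 7 genes of complex I, -0.88 for mt-Cytb of complex III, -0.65 for 3 genes of complex IV and -0.82 for 2 genes of complex V. Of these, mt-Atp8 of complex V, at 2.20 and 4.16 FPKM, had an interval that includes no change (0.209 to 1.36). The complex IV median is the value of mt-Co2, at 14.4 and 23.1 FPKM, while mt-Co1, at 666 and 1116 FPKM, was at -0.74. In complex I the mitochondrial genes summed to 3937 FPKM in PRP and 7391 in control, a ratio of 0.533, against 0.997 for the nuclear subunits without paralog entries. On the log2 scale the 13 ran from mt-Nd4l, with 1004 and 2050 FPKM and a ratio of 0.490 (0.474 to 0.505), to mt-Co3, with 4.16 and 6.202 FPKM and a ratio of 0.672 (0.474 to 0.933).

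**Figure D5:**
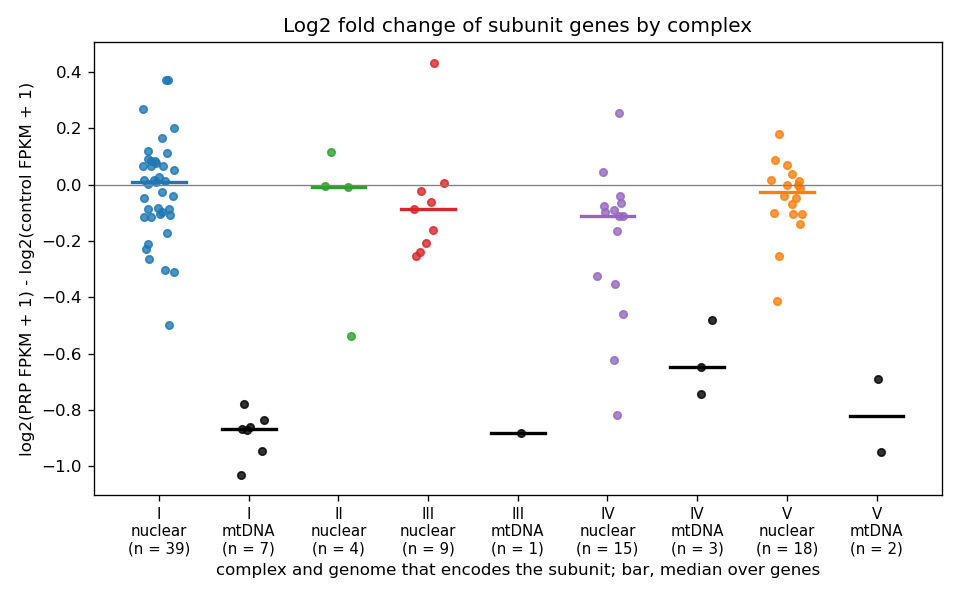
Log2 fold change (y axis) of each tested nuclear subunit gene (coloured) and each mitochondrial subunit gene (black) by complex (x axis), with the median over genes as a bar. The nuclear medians lie between -0.11 and 0.01, where the sign for complex I depends on the scaling and on near-identical copies, and the mitochondrial ones between -0.88 and -0.65.

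Genes that feed or control the chain were read from lists of general knowledge. Of 17 citrate cycle genes, all tested, 12 were lower and 5 higher, with 6 called lower at 1.2-fold (against 18.1% of all genes), none called higher (against 20.4%) and a median log2 fold change of -0.07. Idh2, the mitochondrial NADP-dependent isocitrate dehydrogenase, had 8.85 FPKM in PRP and 18.7 in control, a ratio of 0.473 (0.421 to 0.531). Mdh2, malate dehydrogenase, was the highest with 44.2 and 38.5 FPKM, a ratio of 1.15 (1.09 to 1.21). The others called lower were Sucla2 (27.9 and 37.5 FPKM), Idh3g (3.84 and 5.13 FPKM), Fh1 (2.73 and 3.86 FPKM), Dlat (3.33 and 4.22 FPKM) and Ogdh (18.1 and 22.0 FPKM), named here after their values were seen.

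The genes for cytochrome c and coenzyme Q had a median log2 fold change of 0.06, against 0.01 over all genes tested. Of 15 such genes 9 were tested, 7 higher and 2 lower, where 50.9% of all genes were higher. At 1.2-fold none was called higher (against 20.4% of all genes) and 1 lower (against 18.1%). Coq5, a methyltransferase of coenzyme Q synthesis, was the highest on the log2 scale with 14.8 FPKM in PRP and 12.2 in control, a ratio of 1.22 (1.10 to 1.35), while Coq10b, at 2.15 and 1.65 FPKM, had the highest plain ratio, 1.31. Coq10a, which binds coenzyme Q, was the lowest with 1.66 and 2.41 FPKM, a ratio of 0.686 (0.507 to 0.916). Of 7 other enzymes that pass electrons to quinone, 5 were tested, 3 higher and 2 lower with a median of 0.15. They ran from Etfdh, the electron transfer flavoprotein dehydrogenase (5.98 and 6.99 FPKM, ratio 0.855, 0.778 to 0.939), to Sqor, which oxidises sulphide (21.4 and 15.3 FPKM, ratio 1.40, 1.29 to 1.51).

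Of 14 regulators of mitochondrial genes 11 were tested, 6 higher and 5 lower. At 1.2-fold 1 was called higher (against 20.4% of all genes) and 2 lower (against 18.1%). The median was 0.01, and its sign, as for complex I, depended on the scaling. Hif1a, the oxygen-regulated subunit of HIF-1, was the lowest with 79.8 FPKM in PRP and 109 in control, a ratio of 0.730 (0.710 to 0.750). Gabpb1, a subunit of the ETS factor GABP, was the highest with 2.07 and 1.55 FPKM, a ratio of 1.34 (1.12 to 1.60). The coactivators Ppargc1a (0.348 and 0.209 FPKM) and Ppargc1b (0.562 and 0.499 FPKM) were below the filter.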

How the data were processed

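RNA was extracted with TRIzol and made into libraries with a stranded mRNA kit. Per the submitters' processing notes, which name fastp 0.23.4, STAR 2.5.3a and featureCounts, mm10 was the genome. The deposited values are FPKM for each gene, computed by the authors. The annotation release is not given in the sources used here. Exon lengths, positions and gene overlaps came from GENCODE M21 (GRCm38). FPKM multiplied by these lengths gave whole reads, within 0.001 reads, for 93.8% of genes above 0 with a length. Even read numbers prevailed (79.3% and 80.3% of genes with up to 8 reads), as when both mates are counted, so intervals used reads divided by 2. Reads of PCR copies are not independent. No count test was run.

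The pseudocount was 1. Levels per principal length used the length of 1 transcript per gene. The members and lists were chosen with earlier results of these data known. Named were all isoform pairs, complex I core and complex II subunits, the 3 highest and 3 lowest and the most abundant gene of each complex, members past 1.5-fold, assembly factors of the rule past 1.2-fold, and the extremes of each other list. Other genes named, such as the rest of those past 1.2-fold, were added after their values were seen. As alternatives, pseudocounts of 0.1 and 5 were tried, as were a filter at a mean FPKM of 5 or none, 3 scalings, other fold thresholds, and, chosen after seeing the data, the removal of genes with at least 10% of 50-base words in other genes, the removal of paralog entries and the principal transcript length. The values of 1 gene are not reported here. Scripts were tested on simulated data. The software was bedtools 2.31.1 and Python 3.11.15, with matplotlib 3.10.9, SciPy 1.17.1, pandas 2.3.3 and NumPy 2.4.6.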

Additional observations from a re-analysis of the deposited data

How the results depend on the processing

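No paired analysis was possible because PRP and control had 1 library apiece. The median log2 fold change of the 92 genes stayed between -0.07 and -0.03 under every scaling, filter and pseudocount tried. The count of higher genes in complex III went from 2 to 1 under each of the 3 scalings, and that in complex V from 7 to 4 with mitochondrial and top genes left out of the sum. The log2 ratio of the complex I sum with paralog entries, 0.01, became -0.02 under that scaling. Without the filter on low values complex IV had 5 higher genes in place of 2. Without near-identical copies fewer genes were left, and complex IV had 1 higher of 12 (2 of 15 with them) and complex V 7 lower of 12 (11 of 18 with them). Without paralog entries, an alternative added after seeing the data, 3 genes were higher at 1.2-fold in place of 5. At 1.5-fold 2 genes were lower and 1 higher, and at 2-fold 0 and 0. The scalings gave 12 to 16 genes lower at 1.2-fold and 4 higher, and a pseudocount of 5 gave 8 and 4. A total of 11 genes close to no change switched direction under a scaling or pseudocount, and 0 of those past 1.2-fold did. The intervals cover counting error, and without replicates the spread between cultures is unknown.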
